A study of Mus musculus with 6 samples.

Results

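The RGS genes encode regulators of G protein signalling, and 10 of them (Rgs2, Rgs3, Rgs4, Rgs5, Rgs6, Rgs7, Rgs8, Rgs10, Rgs16 and Rgs17) are described here across 3 sorted cell subsets of the mouse dorsal root ganglion, the ganglion that holds the cell bodies of body sensory neurons. They were found by gene symbol in the deposited table of all genes, where each had 1 row, and they make up 10 of its 23029 rows. All cells came from mice carrying 1 mCherry reporter allele at the locus of GINIP (genotype GINIP+/mcherry), a protein known to bind active inhibitory G alpha subunits. DP cells were IB4+GINIP+ and are labelled Mrgprd+ neurons, the C-LTMR subset, named for C-fibre low-threshold mechanoreceptors, was IB4-GINIP+, and the DN subset was IB4-GINIP- and held what was left. IB4, isolectin B4, is a lectin that binds many non-peptidergic nociceptors. No treatment other than the sort is given, and the labels used here name no strain, age or sex. There were 2 libraries per subset (n = 2 in each group), which the labels do not describe as separate animals. The p-values therefore measure the spread between these libraries, which may be technical.

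RGS proteins speed up the hydrolysis of GTP by G alpha subunits and so shorten signalling by G protein-coupled receptors. Members of the R4 subfamily (here Rgs2, Rgs3, Rgs4, Rgs5, Rgs8 and Rgs16) are mostly small proteins built around the RGS domain and act on inhibitory and Gq alpha subunits. R7 members (Rgs6 and Rgs7) are larger, act on the Gi/o class and are stable as protein only in a complex with the beta subunit Gnb5. Rgs10 belongs to the R12 subfamily and Rgs17 to the RZ subfamily, and both act on the Gi/o class. In sensory neurons, receptors that signal through these subunits include opioid, GABA-B and Mas-related receptors.

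Values are RPKM, reads per kilobase of gene and scaled to the library's reads, so gene length is allowed for when genes are set side by side. Other differences between genes, such as in amplification of the RNA, are not corrected, so ratios and shares between genes are approximate. Depth was estimated from RPKM values and exon lengths of genes seen in at most 2 libraries, with the commonest value taken as 1 read. It came to 32.3 to 42.1 M reads per library, where 1 read in a gene of 1 kb is worth 0.0238 to 0.031 RPKM. A gene entered the test if it reached 1 RPKM in at least 2 libraries, which 12386 genes did, and a difference was called where limma's p, adjusted by Benjamini-Hochberg (BH), was under 0.05 and the means differed by 1 or more on the log2(RPKM + 0.1) scale. Of the 10 RGS genes, 9 passed the filter, and Rgs6 did not. Marker genes mostly followed the sort labels. Of 9 Mrgprd nociceptor markers, 8 were called higher in DP than in C-LTMR and 9 higher than in DN. Of 9 C-LTMR markers, 8 were called higher in C-LTMR than in DP and 9 higher than in DN. Some were high in both GINIP+ subsets, such as Gfra2 (139 and 134 RPKM in DP, 180 and 187 in C-LTMR). Mrgprd was at 220 and 277 RPKM in the DP libraries and at most 2.01 elsewhere, and Th, the dopamine-synthesis enzyme of C-LTMRs, was at 1017 and 1038 in C-LTMR and at most 61.7 elsewhere. DN held markers of many cell types, with summed levels of 449 and 744 RPKM for 11 endothelial markers (10.9 to 53.4 in the other libraries) and 7555 and 17395 for 8 satellite glia markers (762 to 2033 in the other libraries). The endothelial sum in C-LTMR was mostly Egfl7 (46.9 and 47.0). DN also held neurons: 17 pan-sensory-neuron genes summed to 11246 and 8333 RPKM there and to 11861 to 12549 in the other libraries. In such bulk libraries, fewer cells of a type and less RNA per cell cannot be told apart.

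**Figure D1:**
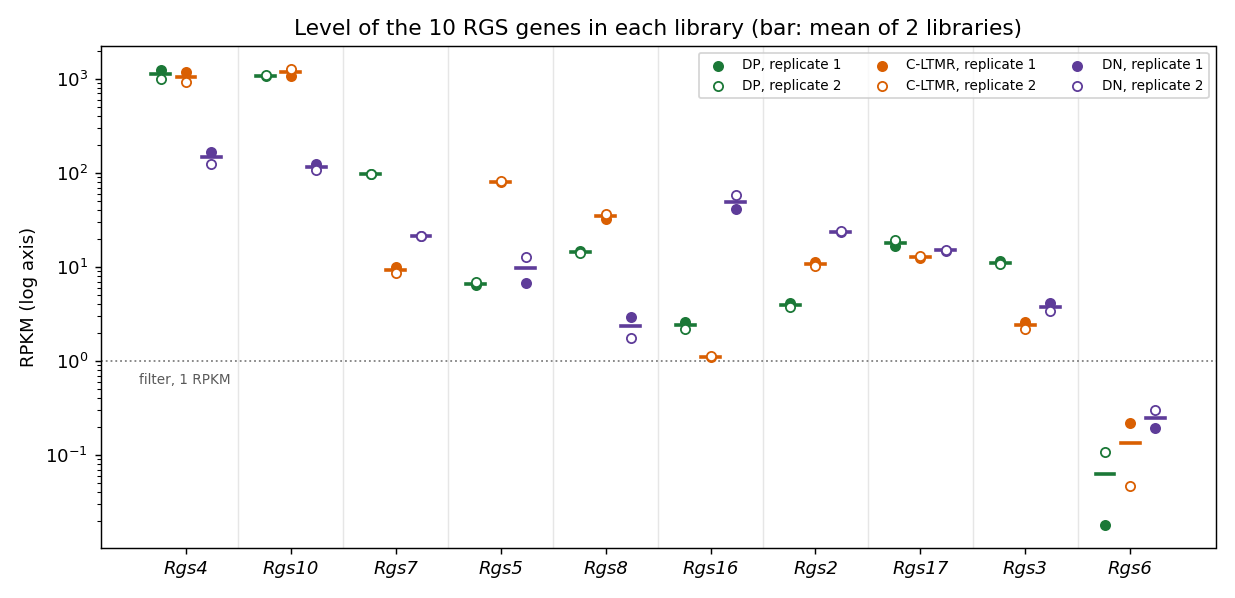
RPKM of the 10 RGS genes on a log axis, with filled points for replicate 1, open points for replicate 2 and a bar at their mean, for DP (green), C-LTMR (orange) and DN (purple). Rgs4 and Rgs10 sit at 934 to 1283 RPKM in the 4 DP and C-LTMR libraries and at 108 to 167 in DN, while Rgs6 lies below the 1 RPKM filter in all 6 libraries.

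Rgs4 and Rgs10 were the most abundant of the RGS genes in all 6 libraries, and both were far higher in the GINIP+ subsets than in DN. Rgs4 (Entrez 19736, chromosome 1, 169741477 to 169747642, minus strand, GRCm38) was at 1252 and 1007 RPKM in DP, 1177 and 934 in C-LTMR, and 167 and 126 in DN. The DP and C-LTMR libraries overlapped, and each exceeded both DN libraries. Its fold change was 7.73 for DP over DN (log2 2.95, SE 0.188, limma BH-adjusted p = 3.05e-05) and 7.22 for C-LTMR against DN (log2 2.85, adjusted p = 3.45e-05). Between DP and C-LTMR the log2 difference was 0.10 with a 95% interval from -0.35 to 0.55 (limma BH-adjusted p = 0.733). Rgs4 ranked between 30 and 44 among all genes in the GINIP+ libraries and at 519 and 698 in DN.

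Rgs10 (Entrez 67865, chromosome 7, 128373625 to 128418172, minus strand), known for a short protein that is little more than the RGS domain, was also lowest in DN. It was at 1076 and 1096 RPKM in DP, 1086 and 1283 in C-LTMR, and 125 and 108 in DN. The libraries of DP and C-LTMR overlapped, and DN lay below all of them. The fold change was 9.32 for DP over DN (log2 3.22, SE 0.121, limma BH-adjusted p = 6.14e-06) and 10.1 for C-LTMR against DN (log2 3.34, adjusted p = 4.94e-06). DP minus C-LTMR was -0.12 on the log2 scale, with a 95% interval from -0.41 to 0.17 (limma BH-adjusted p = 0.496). The interval leaves room for a difference of either sign. Rgs10 is also known from macrophages and microglia. Of their markers, Ptprc was at 0.00516 to 0.272 RPKM and Csf1r at 0.0719 to 0.264 in the 6 libraries. Other markers were higher and peaked in DN. Cd14 was at 20.1 and 41.7 there and at 4.07 to 8.3 in the other libraries. Aif1 was at 1.64 and 1.58 in DN and C1qb at 2.12 and 1.63, against at most 0.932 and 0.811 in the other libraries. Cd68 was also highest in DN, at no more than 1.49. C1qa (0.351 and 0.771) and C1qc (0.225 and 0.297) were instead highest in DP. Summed over 15 immune markers the level was 232 and 261 in DP, 5.71 and 10.5 in C-LTMR, and 64.6 and 116 in DN. In DP this sum was carried by S100a9 (102 and 115), S100a8 (59.4 and 75.6), Lyz2 (34.3 and 29.8) and Ngp (27.3 and 29.1). It is therefore not a measure of macrophages alone. The part of immune cells in the Rgs10 levels was not tested.

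The promoters of these 2 genes are shown because both transcripts were called lower in DN than in DP and C-LTMR while the sequences at their start sites differed in composition. Each runs from 250 bases before to 50 bases after the gene's start, 5′ to 3′ on the gene's strand, from RefSeq (GRCm38.p6). Those of Rgs5 and Rgs16, which are described further down, are added as members with other patterns. Capitals mark a TATA box (TATAAA), a GC box (GGGCGG) or the half-site of a cAMP response element (TGACG), on either strand.
Rgs4, chr1:169747593-169747892, minus strand: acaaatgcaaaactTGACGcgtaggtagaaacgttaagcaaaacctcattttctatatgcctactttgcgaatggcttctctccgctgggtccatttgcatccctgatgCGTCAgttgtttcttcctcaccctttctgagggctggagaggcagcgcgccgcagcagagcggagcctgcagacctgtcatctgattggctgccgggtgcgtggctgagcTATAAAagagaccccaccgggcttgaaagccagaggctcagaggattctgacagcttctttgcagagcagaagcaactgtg
Rgs10, chr7:128418123-128418422, minus strand: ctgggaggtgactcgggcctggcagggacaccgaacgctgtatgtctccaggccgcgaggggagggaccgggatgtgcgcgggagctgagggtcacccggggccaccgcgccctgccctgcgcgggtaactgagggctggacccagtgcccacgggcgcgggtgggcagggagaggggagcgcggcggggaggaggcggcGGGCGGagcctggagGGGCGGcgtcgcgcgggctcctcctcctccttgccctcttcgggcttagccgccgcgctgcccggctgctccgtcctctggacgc
Rgs5, chr1:169655251-169655550, plus strand: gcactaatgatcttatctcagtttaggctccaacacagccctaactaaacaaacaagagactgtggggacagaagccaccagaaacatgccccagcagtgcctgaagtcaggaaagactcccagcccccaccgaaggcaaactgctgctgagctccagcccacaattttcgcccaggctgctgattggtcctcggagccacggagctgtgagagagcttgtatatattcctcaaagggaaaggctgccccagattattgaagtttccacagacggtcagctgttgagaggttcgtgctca
Rgs16, chr1:153740103-153740402, plus strand: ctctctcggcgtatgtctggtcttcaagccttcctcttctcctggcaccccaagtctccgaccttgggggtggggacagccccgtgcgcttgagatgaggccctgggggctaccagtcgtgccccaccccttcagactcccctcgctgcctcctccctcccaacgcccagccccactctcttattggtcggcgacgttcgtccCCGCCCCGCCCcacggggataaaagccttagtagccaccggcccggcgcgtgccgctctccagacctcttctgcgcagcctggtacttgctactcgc

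The Rgs4 promoter holds a TATA box that begins at position -31, counted from the gene's first base as +1, and 2 cAMP half-sites that begin at -236 and -141. Its GC content is 53%. The Rgs10 promoter has a GC content of 76%, GC boxes that begin at -50 and -35, and no TATAAA in this window. The Rgs5 window (GC 52.3%) holds none of the 3 marked motifs. The Rgs16 window (GC 66%) holds 2 GC boxes that begin at -47 and -42 and share 1 base. Of 32851 promoters of 300 bases in the RefSeq table, 13.6% hold TATAAA, 35.7% the GC box and 20.8% the cAMP half-site, and the median GC content is 52.7%. All 10 genes had a promoter in the table, 13 in all, of which 3 belong to Rgs8 and 2 to Rgs3. The full cAMP element TGACGTCA, held by 1.79% of all promoters, was in none of the 13. The RUNX core TGTGGT, held by 16.8%, was in 2 of the 13, at -169 and -184 of separate Rgs8 start sites, and the CCAAT box (CCAAT, held by 37.4%) was at 1 start site each of Rgs2, Rgs4, Rgs5 and Rgs16 and at 2 of Rgs8. These matches describe letters in the windows only.

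Rgs7, like Rgs3 (described further down), was called higher in DP than in both other subsets. The gene (Entrez 24012, chromosome 1, 175059076 to 175492545, minus strand) was at 97.3 and 97.8 RPKM in DP, 9.98 and 8.66 in C-LTMR, and 21.3 and 21.6 in DN. The 3 subsets did not overlap, and their order was DP, DN, C-LTMR. DP was 10.4-fold above C-LTMR (log2 3.38, SE 0.0974, limma BH-adjusted p = 2.06e-05) and 4.53-fold above DN (log2 2.18, adjusted p = 9.57e-06). DN was 2.29-fold above C-LTMR (log2 of C-LTMR against DN -1.20, limma BH-adjusted p = 8.01e-05).

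Rgs6, the other R7 member (Entrez 50779, chromosome 12, 82617038 to 83158812, plus strand), was close to the limit of detection. It was at 0.0181 and 0.109 RPKM in DP, 0.22 and 0.0472 in C-LTMR, and 0.194 and 0.299 in DN. The subsets DP and C-LTMR overlapped, and C-LTMR overlapped DN. With the filter lowered to 0.1 RPKM it was tested and not called in any comparison (limma BH-adjusted p = 0.499 for DP over C-LTMR, 0.069 for DP over DN, and 0.25 between C-LTMR and DN). An antisense gene, Gm29530, overlaps its exons, and no source used here says whether reads were counted by strand.

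Gnb5, the obligate partner of R7 proteins, was nearly level: 51.8 and 52.3 RPKM in DP, 62.3 and 56.4 in C-LTMR, and 56.2 and 50.0 in DN. It was not called in any comparison, and its DP over DN log2 fold change was -0.03 (limma BH-adjusted p = 0.829). Rgs7bp, which anchors R7 complexes at the membrane, was at 133 and 160 in DP and 121 and 149 in C-LTMR but at 34.6 and 27.7 in DN. It was 4.7-fold above DN in DP and 4.32-fold in C-LTMR (limma BH-adjusted p = 4.69e-05 and 5.8e-05), so this anchor followed the GINIP+ subsets while Rgs7 followed DP. Of the 5 genes on the list of R7 partners, 3 passed the filter and Rgs7bp was the 1 called against DN. Gpr158, a receptor that recruits Rgs7, was at 1.44 to 2.68 RPKM in the 6 libraries and was not called.

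Among the R7 genes outside the 10, Rgs11 was at 2.21 and 0.869 RPKM in DP, 9.64 and 5.24 in C-LTMR, and 8.41 and 5.96 in DN. It was called lower in DP against both (log2 -2.27 and -2.26, limma BH-adjusted p = 0.00969 and 0.00462). Rgs9 was at 2.41 and 1.75 in DN and at no more than 0.103 in the GINIP+ libraries. Summed per library, R7 transcripts reached 99.6 and 98.9 RPKM in DP, 19.9 and 14.0 in C-LTMR, and 32.3 and 29.6 in DN. Rgs7 made up 97.7% and 99% of that sum in DP and 50.2% and 61.9% in C-LTMR, where Rgs11 gave 48.5% and 37.4%. The ratio of summed R7 to Gnb5 transcripts was 1.92 and 1.89 in DP, 0.319 and 0.248 in C-LTMR and 0.576 and 0.591 in DN.

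**Figure D2:**
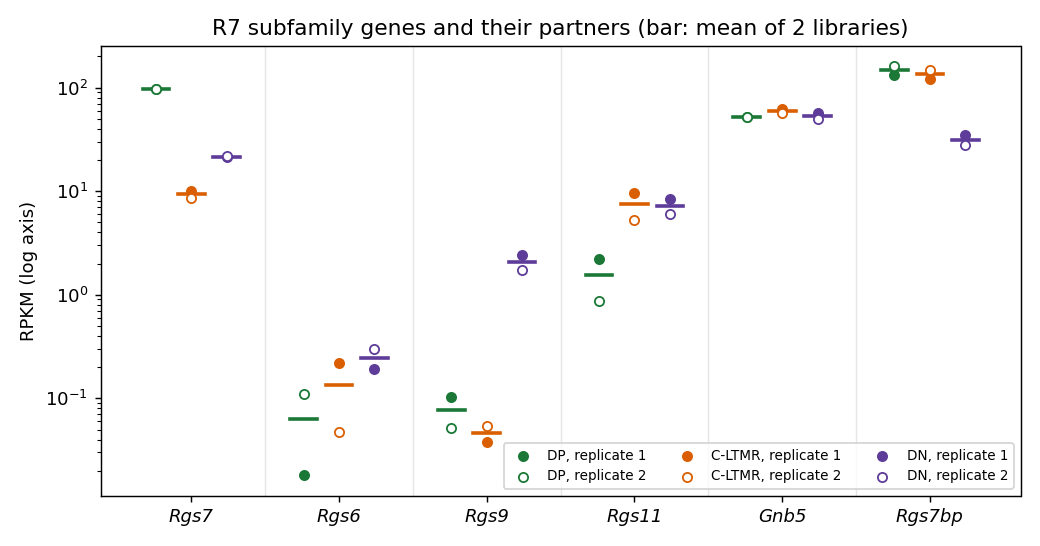
RPKM on a log axis of the 4 R7 genes, of Gnb5 and of Rgs7bp in each library (filled points replicate 1, open points replicate 2, bar at the mean). Gnb5 stays between 50.0 and 62.3 in all 6 libraries, Rgs7 is at 97.3 and 97.8 in DP and at most 21.6 elsewhere, and Rgs7bp is at or below 34.6 only in DN.

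Rgs5 and Rgs8 were highest in C-LTMR. Rgs5 (Entrez 19737, chromosome 1, 169655501 to 169693526, plus strand) was at 79.5 and 82.3 RPKM in C-LTMR, 6.42 and 6.85 in DP, and 6.77 and 12.7 in DN. DP and DN overlapped, and both lay far under C-LTMR. C-LTMR was 12-fold above DP (log2 for DP over C-LTMR -3.59, SE 0.261, limma BH-adjusted p = 0.000136) and 8.64-fold above DN (log2 3.11, adjusted p = 9.1e-05). DP over DN was -0.48 on the log2 scale with a 95% interval from -1.10 to 0.15, and was not called (limma BH-adjusted p = 0.154).

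Rgs5 is best known as a marker of pericytes, the contractile cells on small vessels. The 12 pericyte and smooth muscle markers, which do not include Rgs5, summed to 1.63 and 3.05 RPKM in C-LTMR, 11.2 and 16.2 in DP, and 58.2 and 94.6 in DN. In each C-LTMR library 2 of the 12 markers were at 0. The ATP-sensitive potassium channel gene Kcnj8, a defining pericyte marker, was at 0 in both C-LTMR libraries, 0.0326 and 0.0119 in DP, and 1.04 and 2.66 in DN. Acta2, smooth muscle actin, was at 0.148 and 0.313 in C-LTMR, 3.35 and 6.01 in DP, and 20.2 and 32.2 in DN. Pdgfrb, also on the list, was instead highest in DP (3.93 and 4.17), with 0.41 and 0.582 in C-LTMR and 2.25 and 3.21 in DN. Within DN, Rgs5 and the pericyte sum were both higher in replicate 2. So were the endothelial, fibroblast, satellite glia and immune sums, while the myelinating Schwann cell sum was lower there (1512 and 1433). The part of pericytes or smooth muscle cells in the Rgs5 level of any subset was not tested.

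**Figure D3:**
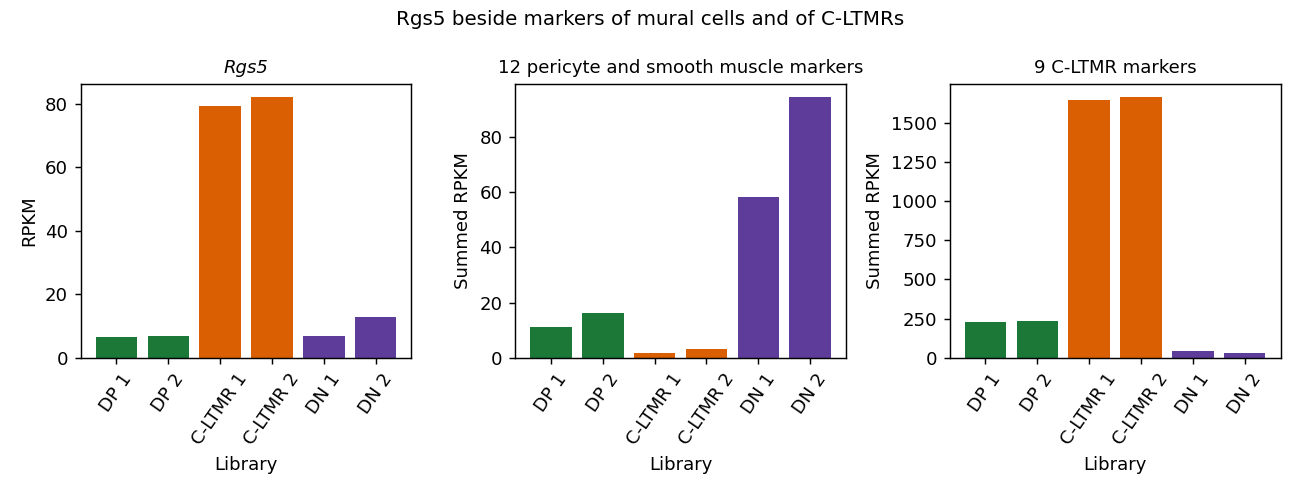
Bars give RPKM of Rgs5, the summed RPKM of 12 pericyte and smooth muscle markers and the summed RPKM of 9 C-LTMR markers in each of the 6 libraries, on linear axes from 0. Rgs5 is at 79.5 and 82.3 in the C-LTMR libraries, where the pericyte sum is 1.63 and 3.05 and the C-LTMR marker sum is 1647 and 1665.

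Rgs8 (Entrez 67792, chromosome 1, 153653037 to 153697665, plus strand), a gene known from Purkinje neurons, was at 32.7 and 36.4 RPKM in C-LTMR, 14.9 and 14.2 in DP, and 2.94 and 1.77 in DN. The subsets did not overlap and fell in the order C-LTMR, DP, DN. C-LTMR was 14.5-fold above DN (log2 3.86, SE 0.218, limma BH-adjusted p = 1.91e-05) and 2.36-fold above DP (log2 for DP over C-LTMR -1.24, adjusted p = 0.00578). DP was 6.15-fold above DN (log2 2.62, limma BH-adjusted p = 8.78e-05). The antisense gene Gm29529 overlaps exons of Rgs8, and reads of the pair cannot be told apart without strand.

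Rgs3 (Entrez 50780, chromosome 4, 62559847 to 62703019, plus strand), which acts on Gi and Gq alpha subunits, was highest in DP. It was at 11.5 and 10.7 RPKM there, 2.62 and 2.19 in C-LTMR, and 4.11 and 3.38 in DN. DP stood above all other libraries, with 4.5-fold over C-LTMR (log2 2.17, SE 0.15, limma BH-adjusted p = 0.000116) and 2.93-fold over DN (log2 1.55, adjusted p = 0.000169). The C-LTMR to DN log2 fold change was -0.62, which passed the p threshold (limma BH-adjusted p = 0.0113) but not the fold threshold.

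Rgs16 and Rgs2 were the members highest in DN. Rgs16 (Entrez 19734, chromosome 1, 153740353 to 153745468, plus strand) was at 41.2 and 57.9 RPKM in DN, 2.6 and 2.19 in DP, and 1.11 and 1.12 in C-LTMR. DN was 40.2-fold above C-LTMR (log2 for C-LTMR over DN -5.33, SE 0.183, limma BH-adjusted p = 4.24e-06) and 19.7-fold above DP (log2 -4.30, adjusted p = 8.48e-06). DP was also above C-LTMR, by 2.04-fold (log2 1.03, limma BH-adjusted p = 0.006), close to the fold threshold. That call was lost without DP replicate 1 (log2 0.91), with a pseudocount of 1 (0.68) and with limma's treat test (adjusted p = 1). Gm28513, an antisense gene, overlaps its exons.

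Rgs2 (Entrez 19735, chromosome 1, 143999338 to 144004149, minus strand), which is selective for Gq alpha subunits and is known as an immediate early gene, was at 23.4 and 24.1 RPKM in DN. It was at 11.4 and 10.2 in C-LTMR and 4.17 and 3.75 in DP, with no overlap between subsets. DN was 5.88-fold above DP (log2 for DP over DN -2.56, SE 0.11, limma BH-adjusted p = 8.48e-06) and 2.19-fold above C-LTMR (log2 -1.13, adjusted p = 0.000175). C-LTMR was 2.69-fold above DP (log2 for DP over C-LTMR -1.43, limma BH-adjusted p = 0.000169). Its order was thus DN, C-LTMR, DP.

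Other genes moved with these DN levels. The 13 immediate early and stress genes summed to 6920 and 9462 RPKM in DN, 1392 and 1408 in DP, and 726 and 959 in C-LTMR, with 12 of 13 called higher in DN than in DP and 13 of 13 higher than in C-LTMR. Unlike Rgs2, this sum was lower in C-LTMR than in DP. Fibroblast markers, 6 genes, summed to 302 and 431 in DN and to 6.63 to 14.4 in the other libraries, and the endothelial and satellite glia sums given above were also highest in DN. The part of these cells or of early gene induction in the DN levels of Rgs2 and Rgs16 was not tested. The 8 peptidergic neuron markers summed to 8943 and 8084 RPKM in DN against 1334 to 1661 elsewhere, a sum carried by Calca (5045 and 4465 in DN) and Tac1 (2793 and 2650), while Calcb was highest in DP (576 and 521, against 282 and 233 in DN).

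Rgs17 (Entrez 56533, chromosome 10, 5825664 to 5922400, minus strand) was the most even of the 9 tested genes. It was at 16.8 and 19.6 RPKM in DP, 14.7 and 15.3 in DN, and 12.6 and 13.0 in C-LTMR. The libraries did not overlap between subsets, yet no difference reached the fold threshold. DP over C-LTMR was 0.50 with a 95% interval from 0.25 to 0.76 (limma BH-adjusted p = 0.0124), DP over DN 0.28 (adjusted p = 0.0602) and C-LTMR over DN -0.23 (adjusted p = 0.107). Rgs19, a member of the same RZ subfamily outside the 10, was at 13.0 to 26.3 RPKM and was not called either.

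In counts, 3 of the 9 tested members were called higher in DP than in C-LTMR (Rgs3, Rgs7 and Rgs16) and 3 lower (Rgs2, Rgs5 and Rgs8). Of all genes tested, 14.8% were called there, 6.39% towards DP and 8.37% towards C-LTMR. Against DN, 5 were called higher in DP (Rgs3, Rgs4, Rgs7, Rgs8 and Rgs10) and 2 lower (Rgs2 and Rgs16), with 30.7% of all genes called, 7.77% higher in DP and 23.0% higher in DN. C-LTMR had 4 called higher than DN (Rgs4, Rgs5, Rgs8 and Rgs10) and 3 lower (Rgs2, Rgs7 and Rgs16), with 29.4% of all genes called, 8.53% higher in C-LTMR and 20.8% higher in DN. The median absolute log2 fold change of the 9 genes was 1.24, 2.56 and 2.85 in these comparisons, and that of all genes tested 0.28, 0.52 and 0.49. Signed medians were 0.10, 1.55 and -0.23 for the 9 genes and -0.05, -0.14 and -0.05 for all genes. Against the fold threshold itself (limma's treat test, BH-adjusted), the calls of Rgs2 (adjusted p = 0.0506), Rgs8 (adjusted p = 1) and Rgs16 between DP and C-LTMR were lost, and so were those of Rgs2 (adjusted p = 0.556) and Rgs7 (adjusted p = 0.187) between C-LTMR and DN. The comparisons share libraries, so their counts are not separate evidence. The genes were taken from a family already known to hold such differences in these data, and these shares carry no test of the family.

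**Figure D4:**
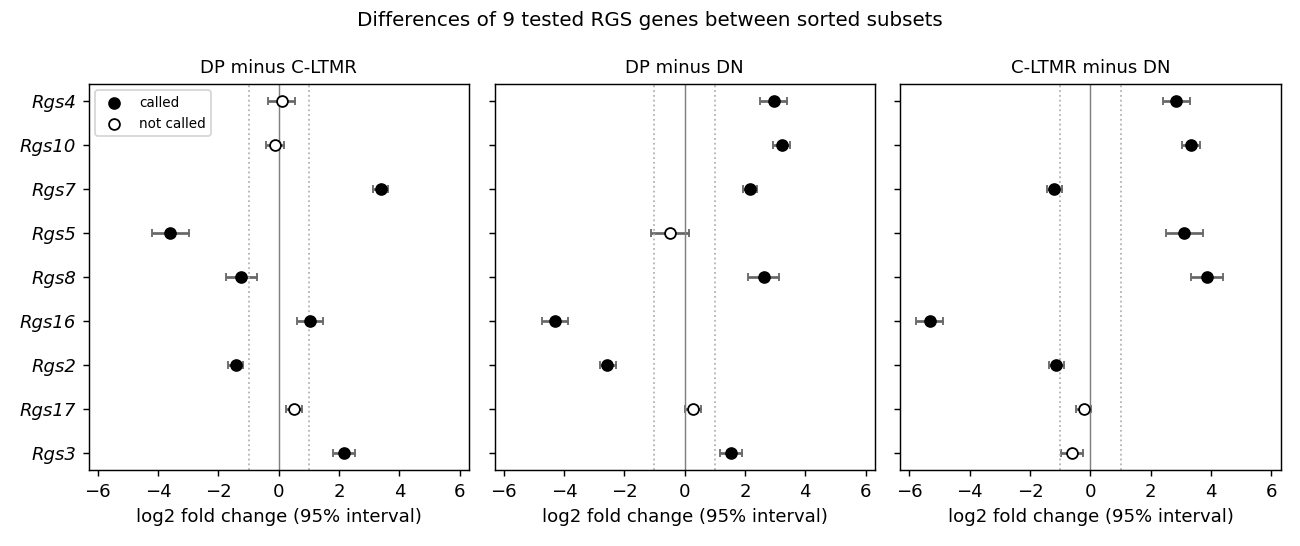
Log2 fold changes (points) with 95% intervals (lines) of the 9 tested RGS genes in the 3 comparisons, filled where called, with dotted lines at -1 and 1. Rgs4 and Rgs10 lie at 0.10 and -0.12 between DP and C-LTMR and at 2.85 to 3.34 against DN, and Rgs16 lies at -4.30 and -5.33 against DN.

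The whole RGS set was made up differently in DN. Summed over the 20 RGS genes in the table, levels were 2514 and 2286 RPKM in DP, 2443 and 2393 in C-LTMR, and 461 and 418 in DN. Rgs4 and Rgs10 together gave 92.6% and 92% of the sum in DP, 92.6% in each C-LTMR library, and 63.4% and 56% in DN. Without these 2 genes the sum was nearly level, at 187 and 184 in DP, 180 and 176 in C-LTMR, and 169 and 184 in DN. The genes behind that level remainder differed. Rgs7 was the next most abundant in DP (3.87% and 4.28% of the whole), Rgs5 in C-LTMR (3.25% and 3.44%) and Rgs16 in DN (8.93% and 13.9%).

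**Figure D5:**
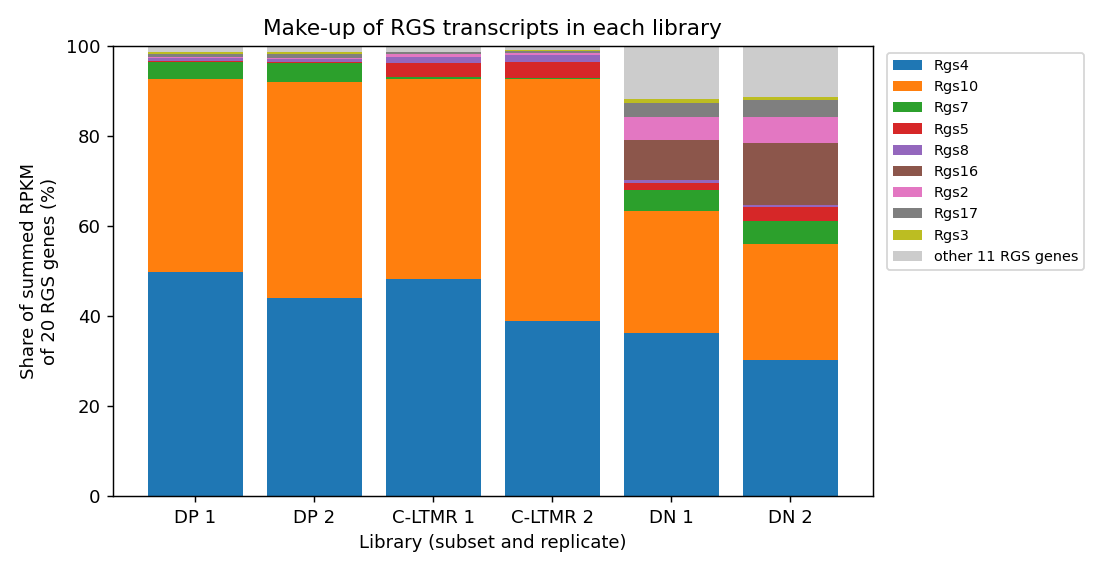
Stacked bars give the share of each gene in the summed RPKM of 20 RGS genes, per library. Rgs4 and Rgs10 fill 92.0% to 92.6% of the bar in the DP and C-LTMR libraries and 56% to 63.4% in DN, where Rgs16 fills 8.93% and 13.9%.

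Of the 10 genes, 6 lie on chromosome 1, and 2 pairs of them are close neighbours with unlike patterns. Rgs5 and Rgs4 lie 48.0 kb apart with no other gene of the table between them. The ratio of Rgs4 to Rgs5 was 195 and 147 in DP, 14.8 and 11.3 in C-LTMR, and 24.7 and 9.94 in DN. Rgs8 and Rgs16 lie 42.7 kb apart, with 1 gene of the table between them (C230024C17). The ratio of Rgs8 to Rgs16 was 5.74 and 6.5 in DP and 29.4 and 32.5 in C-LTMR, and it was below 1 in DN (0.0714 and 0.0306). Within both pairs, then, 1 gene was highest in C-LTMR (Rgs5, Rgs8), while the neighbour was high in both GINIP+ subsets (Rgs4) or highest in DN (Rgs16).

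Of the 11 other RGS genes on the list, the table held 10, and 6 passed the filter. Against DN, 0 of these were called higher in DP or in C-LTMR, and 4 were called lower in each, where 23.0% and 20.8% of all genes were called towards DN. Of each 4, Rgs9, Rgs12 and Rgs20 reached 1 RPKM only in the DN libraries, so the filter favoured their calls in that direction and the count supports nothing further. Rgs12 was at 6.3 and 5.37 RPKM in DN and 0.701 to 0.865 elsewhere, and Rgs20, an RZ gene, at 2.52 and 2.94 against 0.33 to 0.477. Rgs9 was called lower in both GINIP+ subsets, Rgs11 lower in DP, and Rgs14 lower in C-LTMR (2.93 and 3.06 against 7.96 and 7.15 in DN and 8.12 and 8.51 in DP). Rgs1 and Rgs18, known from blood cells, were listed at 0 in both C-LTMR libraries and at no more than 0.107 in the others, and Rgs13 was listed at 0 in all 6.

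The G alpha subunits on which these proteins act differed between subsets mainly by Gnao1, Gnai1, Gnaq and Gna14. Of 5 Gi/o alpha genes, Gnao1 was called higher than in DN in both DP and C-LTMR (216 and 233 RPKM in DP, 113 and 130 in C-LTMR, 57.5 and 52.3 in DN). Gnai1 was called lower in DP than in C-LTMR (10.5 and 11.6 against 32.2 and 30.9), and 0 others were called in any comparison. Gnai2 was at 141 to 182 in the 6 libraries. Of 4 Gq alpha genes, 3 passed the filter. Gnaq was called higher in DP than in C-LTMR and DN (281 and 299 against 113 and 114, and 76.6 and 81.9). Gna14 was called in all 3 comparisons, at 109 and 101 in DP, 25.9 and 20.5 in C-LTMR, and 1.99 and 1.83 in DN. Rgs2 was thus lowest, and Rgs3 highest, in the subset where Gnaq and Gna14 were highest. A link between these levels was not tested.

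Among 7 other modulators of G alpha, the GINIP gene, listed as N28178, was at 121 and 130 RPKM in DP, 141 and 150 in C-LTMR, and 18.6 and 13.8 in DN. The sort used a reporter at this locus. Gpsm3, a gene with GoLoco motifs that is known from immune cells, was called higher in DN than in both GINIP+ subsets (15.2 and 13.6 against 1.06 to 2.21), and Ric8 and Ric8b, chaperones of G alpha subunits, were not called. The 4 GIRK channel genes (Kcnj3, Kcnj5, Kcnj6 and Kcnj9), effectors of Gi/o in many neurons, did not pass the filter and were at no more than 0.805 RPKM in any library.

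The genes with the most similar profiles were found for each tested member as those with the smallest root mean square difference of centred log2 values over the 6 libraries. This is a description over 12386 genes and 6 libraries, and it says nothing of shared function. The 0.1 added before the log compresses ratios of low genes, so a low gene can rank close to a member despite larger ratios. Of the genes named below, Col6a1 was at 0.0147 and 0.00779 RPKM in C-LTMR and 3.87 and 5.32 in DN. Mmp11 was at 0.148 and 0.128 in DP and 1.37 and 1.42 in DN. Tspan1 was at 0.0651 and 0.0472 in DN and 1.26 to 1.71 elsewhere. Bank1 was at 0.0873 and 0.0763 in C-LTMR and 1.98 and 1.99 in DP. For Rgs10 the second of 3 was the GINIP gene N28178 (0.14), after Tspan1 (0.13). For Rgs4 the nearest were Amigo3 (0.09), 6720468P15Rik (0.10) and Rcan2 (0.16). For Rgs3 the nearest was Trpa1 (0.07), the irritant receptor channel, which is also on the list of Mrgprd nociceptor markers, at 21.3 and 18.0 RPKM in DP, 4.96 and 4.28 in C-LTMR and 8.06 and 6.34 in DN. For Rgs7 the nearest were Bank1 (0.10), the G beta subunit gene Gnb4 (0.15) and Tnfaip8 (0.16). Rgs5 was nearest to AW551984 (0.20), Nell2 (0.20) and Nxpe2 (0.22), and Rgs8 to Fam5b (0.14), Clstn2 (0.18) and Rtn4rl1 (0.19). Rgs16 was nearest to Col6a1 (0.09), a collagen gene, Islr (0.16) and Kctd12 (0.17), and Rgs2 to Mmp11 (0.06), Map3k6 (0.11) and Ccdc102a (0.13). Rgs17 was nearest to Utp23 (0.03), Ctnnb1 (0.05) and Itgb1bp1 (0.05).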

How the data were processed

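RNA of 6 libraries, 2 for each of 3 sorted subsets, was amplified from 50 ng and sequenced on an Illumina instrument, per the labels' protocols. CASAVA 1.8.2, edgeR 2.6.2 and the build GRCm38 (mm10) are named in the submitters' processing notes. Which step each tool did, and the aligner, annotation and strand setting, were not given in the sources used here. Deposited RPKM values of 23029 genes made up the main data, since they hold all 10 members. The second deposited table gives a TMM-normalized count per gene, a signal brought to a common library size that is not a whole number, for 6620 genes, and it holds 9 members. Its lowest member value was 91.6 (Rgs16, C-LTMR replicate 1). Depth was estimated as the mode of 1 read divided by value and exon length (GENCODE M21) over genes seen in at most 2 libraries. No count test was run, because whole counts are not in the files used here.

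Values were taken as log2(RPKM + 0.1), so fold changes of low genes are understated. All 6 libraries were fitted together with limma 3.58.1 under R 4.3.3 (eBayes with a mean-variance trend on contrasts of group means; 3 residual and 3.65 prior degrees of freedom), with p-values adjusted over 12386 genes. Intervals of 95% use the moderated standard errors. The fit was tested on simulated data. Replicates correlated across genes with r = 0.9937 (DP), 0.9897 (C-LTMR) and 0.9732 (DN) in the second table, and differed by more than counting noise. The named genes are the 10 members, the genes of 6 lists of related genes and the 3 nearest profiles per member, and marker lists were counted and summed in full. Members and lists were chosen with earlier results of these data known. Python 3.11.15 with numpy 2.4.6, pandas 2.3.3 and matplotlib 3.10.9 made summaries and plots. Alternatives covered pseudocount, filter, scaling, table, replicate block, libraries in the fit, variance prior, treat and leaving out each library.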

Additional observations from a re-analysis of the deposited data

How the results depend on the processing

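Of 486 member values under alternatives, 475 kept their direction and their side of the threshold, 7 lost a call, 1 gained one and 3 changed sign. Changes of filter, block, variance prior or test (treat) cannot alter a member's fold change. Leaving out libraries of the subset that is not compared cannot alter it either. In those alternatives the direction was fixed in advance, so the 475 overstate how far direction was tested. The sign changes were of differences that were not called: Rgs4 in DP over C-LTMR when DP replicate 1 (-0.06) or C-LTMR replicate 2 (-0.07) was left out, with a range from -0.07 to 0.27 over libraries left out, and Rgs10 in the same comparison with libraries scaled on the pan-sensory-neuron list (0.11). With limma's treat, which tests against the fold threshold itself, members called between DP and C-LTMR went from 6 to 3 and genes called from 1828 to 794. Genes called in that comparison were 1193 with a pseudocount of 1. In the TMM-normalized table, which tests fewer genes, the counts of genes called were 843, 1645 and 1562 for DP over C-LTMR, DP over DN and C-LTMR over DN (1828, 3808 and 3637 in the RPKM table), while members called were again 6, 7 and 7. Rgs3 was also called lower in C-LTMR than in DN with the pan-sensory-neuron scaling (-1.05). Leaving out 1 library gave 5 to 6, 7 and 7 members and 1584 to 1845, 3649 to 3992 and 3419 to 3910 genes called. Scaling moved the split of all calls: the share higher in DP over C-LTMR was 43.3%, and 54.6% with the pan-sensory-neuron scaling. The share higher in DP over DN was 25.3%, with 44.1% after quantile normalization and 37.4% in the TMM-normalized table. The share higher in C-LTMR over DN was 29.1%, with 44.9% after quantile normalization and 15.9% under the pan-sensory-neuron scaling. The pan-sensory-neuron scaling moved the median of all genes by up to 0.447 (C-LTMR over DN, from -0.05 to -0.49). Called differences are at least 1 by definition, so being larger than this shift says nothing about them. Some calls lay near the fold threshold, and Rgs8 in DP over C-LTMR went from -1.24 to -1.01 under this scaling. With the replicate number as a block, 6, 7 and 7 members and 1878, 3828 and 3646 genes were called, and no member call changed. Differences between replicate 1 and replicate 2 correlated over genes between subsets (r = 0.428 for DP and C-LTMR, 0.121 for DP and DN, 0.325 for C-LTMR and DN), but nothing in the labels says that a number marks a shared animal or day, so this is a hint from the data. Depth limits Rgs6 only.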

Other observations

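The ratio of Rgs4 to Rgs10 was higher in the library labelled replicate 1 in all 3 subsets, at 1.16 against 0.919 in DP, 1.08 against 0.728 in C-LTMR and 1.33 against 1.17 in DN. The summed level of 8 satellite glia markers was lower in that library in all 3 subsets, at 762 against 1287 RPKM in DP, 1086 against 2033 in C-LTMR and 7555 against 17395 in DN. That order was not particular to glia. The pericyte and smooth muscle, immune, red blood cell, and immediate early and stress gene sums had it too in all 3 subsets. Whether the replicate numbers mark shared animals, days or handling cannot be told from the labels. A link between the Rgs4 to Rgs10 ratio and these sums was not tested.

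Several low genes of R7 and Gi/o signalling were below the filter, so that their levels are given without a test. Rgs9bp, an anchor of R7 proteins known from the retina, was at 0.435 and 0.503 RPKM in C-LTMR and at no more than 0.0902 in the other libraries. Gpr179, another R7-binding receptor, was at 0.824 and 0.841 in DP, 0.262 and 0.244 in C-LTMR, and 0.0719 and 0.0568 in DN. The GIRK channel gene Kcnj6 was at 0.254 and 0.371 in C-LTMR and at no more than 0.0525 in the other libraries, and Kcnj9 was at 0.805 and 0.439 in DN and at no more than 0.0338 in the others.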
